A study of Mus musculus with 6 samples.

Results

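The Hox genes are the homeobox genes of the Hoxa, Hoxb, Hoxc and Hoxd clusters. They were chosen by name, as every row of the gene tables called Hox, a cluster letter and a paralog number, with an expected count above 0 in any library. This left 38 of 35976 genes. The tables list 39 Hox genes in all, and Hoxb13 was left out with 0 counts in the 6 libraries, which allows at most 3 counts in each. RNA-seq was available for 6 libraries of satellite cells (SCs), the stem cells of skeletal muscle, isolated from hindlimb muscles and collected after 4 days in growth medium. There were 3 libraries of NF-YAcKO cells and 3 of NF-YAfl/fl cells. NF-YAcKO mice carry floxed Nfya alleles and a tamoxifen-inducible Cre driven by Pax7, a gene of SCs. NF-YAfl/fl mice carry the floxed alleles without Cre, and they received tamoxifen too (20 mg/ml, 0.1 mg/g of body weight, 5 daily injections), with muscles taken 7 days after the last dose. The labels give an age of 5-7 weeks and the methods give 6-8 weeks. Non-muscle cells were depleted magnetically, so that a library holds the RNA of all cells that remained.

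Hox proteins are transcription factors that bind DNA through a homeodomain, mostly together with TALE homeodomain partners of the Pbx, Meis and Pknox families. Their genes lie in the clusters in the order of the body regions in which they act, with low paralog numbers at the head end and high numbers at the tail end and in the distal limb, and cells of adult muscle keep a Hox pattern that reflects where in the body they arose. NF-Y, the factor whose DNA-contacting subunit is encoded by Nfya, binds the sequence CCAAT in promoters.

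The libraries held between 26936230 and 41118984 expected counts. The entry added by the study for the deleted Nfya allele took 22.3% to 34.2% of the Nfya counts in NF-YAcKO and 0 counts in NF-YAfl/fl. With that entry included, Nfya as a whole was at 8.94 ± 0.486 TPM in NF-YAcKO and 8.96 ± 1.41 TPM in NF-YAfl/fl (SD, n = 3). Xist averaged 843 normalised counts scaled to library size (CPM) in NF-YAcKO and 0.389 CPM in NF-YAfl/fl, and Y-linked genes were seen at a level above a few counts in NF-YAfl/fl alone, whereas the methods state that male mice were injected. The genotypes thus also differed in the sex shown by these genes. For every gene, Hox genes included, the effects of genotype and of this difference cannot be told apart. Markers of SCs and myoblasts were present in both genotypes. Pax7 was at a mean of 35.2 TPM (transcript level scaled to length) in NF-YAcKO and 19.4 TPM in NF-YAfl/fl. Myod1 was at 344, 360 and 367 TPM in NF-YAcKO and 240, 240 and 632 TPM in NF-YAfl/fl. Of the 10 genes of an early myogenic list, 4 had a fitted change above 0 and 6 below. Those below included Des (means of 120.5 against 541 TPM), Cdh15 (19.2 against 69.2 TPM) and Itga7 (74.1 against 176 TPM). All 15 genes of a terminal muscle list were called lower in NF-YAcKO, with a summed level of 77.4 to 161 TPM against 7245 to 12500 TPM. All 10 macrophage markers were called higher, with 153 to 291.8 TPM against 3.90 to 14.7 TPM, and 5 of 7 Schwann cell markers were, with 24.4 to 29.8 TPM against 7.55 to 21.9 TPM. In bulk libraries, fewer cells of a type and less RNA per cell cannot be told apart.

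The promoters of the called Hox genes are shown first, because CCAAT is the sequence to which NF-Y binds. Of the 38 genes, 22 had an entry in the RefSeq promoter table (GRCm38.p6, the mm10 build), with 24 windows of 250 bases before and 50 after a gene start. Among the genes with no entry were Hoxa4, Hoxb2, Hoxb3, Hoxb5, Hoxb6, Hoxb7, Hoxb9, Hoxc5, Hoxc6, Hoxc8, Hoxc9, Hoxc10, Hoxc11, Hoxc12 and Hoxc13. CCAAT on either strand (ATTGG when read on the gene's strand) was found in 15 of these 22 genes (68.2%), and in 41.1% of the 27025 genes of the table. By cluster it was in 5 of 9 Hoxa genes, 2 of 3 Hoxb genes, the only Hoxc gene with an entry (Hoxc4) and 7 of 9 Hoxd genes. Among the 16 tested Hox genes with an entry, it was in 10 (62.5%). The stretches below lie before the RefSeq start of 4 called genes, are written 5′ to 3′ on the gene's strand, and carry the CCAAT or ATTGG letters in capitals. Bases that overlap an exon on the same strand were trimmed.
Hoxd8 (chr2:74704365-74704614, plus strand): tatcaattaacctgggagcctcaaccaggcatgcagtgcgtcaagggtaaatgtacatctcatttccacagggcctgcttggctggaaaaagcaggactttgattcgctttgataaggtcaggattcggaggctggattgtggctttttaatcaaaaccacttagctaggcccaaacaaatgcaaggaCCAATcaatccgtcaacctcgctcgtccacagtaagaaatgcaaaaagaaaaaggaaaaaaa
Hoxd3 (chr2:74711743-74711926, plus strand): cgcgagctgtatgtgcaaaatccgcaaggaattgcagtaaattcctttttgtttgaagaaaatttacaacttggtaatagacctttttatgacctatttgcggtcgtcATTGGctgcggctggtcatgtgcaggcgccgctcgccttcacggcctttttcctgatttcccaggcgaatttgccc
Hoxd4 (chr2:74721728-74721977, plus strand): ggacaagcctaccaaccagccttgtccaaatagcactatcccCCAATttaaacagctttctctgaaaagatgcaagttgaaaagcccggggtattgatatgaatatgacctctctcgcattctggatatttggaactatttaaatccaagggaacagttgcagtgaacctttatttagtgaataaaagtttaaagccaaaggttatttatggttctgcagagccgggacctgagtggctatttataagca
Hoxa11 (chr6:52245811-52246060, minus strand): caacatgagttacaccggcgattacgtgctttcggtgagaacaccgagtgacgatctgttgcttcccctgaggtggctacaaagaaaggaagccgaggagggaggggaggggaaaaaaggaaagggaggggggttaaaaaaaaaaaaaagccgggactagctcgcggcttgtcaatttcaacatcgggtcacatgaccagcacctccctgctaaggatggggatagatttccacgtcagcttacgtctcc
The match of Hoxd8 ends 57 bases before the start, that of Hoxd3 137 bases and that of Hoxd4 203 bases. Hoxd4 has another match just after its start, in bases not shown. The window of Hoxa11 holds no match, and lies inside the antisense gene Hoxa11os. The stretch of Hoxd4 lies inside the Hoxd3 gene, between its exons. Of the tested genes with an entry that were not called, Hoxa2 and Hoxa5 (fitted level higher in NF-YAcKO) held a match. So did Hoxa6, Hoxa13, Hoxc4, Hoxd10 and, in a single window, Hoxa10 (fitted level lower). Hoxa3, Hoxa9 and Hoxb4 (higher) and Hoxa7 and Hoxd9 (lower) held none. A match is a run of letters, and binding was not measured here.

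Hox genes were expressed at low levels in both genotypes. TPM, a level per transcript length with an equal total in all libraries, is the scale on which levels of different genes are compared. The mean over the 6 libraries was above 1 TPM for 23 genes, between 0.1 and 1 TPM for 9 and under 0.1 TPM for 6, and the highest mean was 6.59 TPM. The 10 genes with the highest means were Hoxa10, Hoxc10, Hoxa11, Hoxd8, Hoxc6, Hoxa5, Hoxa9, Hoxc11, Hoxc9 and Hoxb2, which together made up 64.3% of the Hox TPM. Hoxa and Hoxc genes thus filled most of this list, and Hoxb and Hoxd each gave a single gene. Levels within a cluster did not follow the paralog number alone. Hoxa10 and Hoxa11 were far above Hoxa13, the gene of the distal limb, and Hoxd8 gave 75.9% of the Hoxd TPM in NF-YAfl/fl and 78.9% in NF-YAcKO, while its neighbours Hoxd9 and Hoxd10 stayed under 1.2 TPM in every library. Hoxb1, Hoxd1 and Hoxd12 were each at 0 in 5 of 6 libraries.

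**Figure D1:**
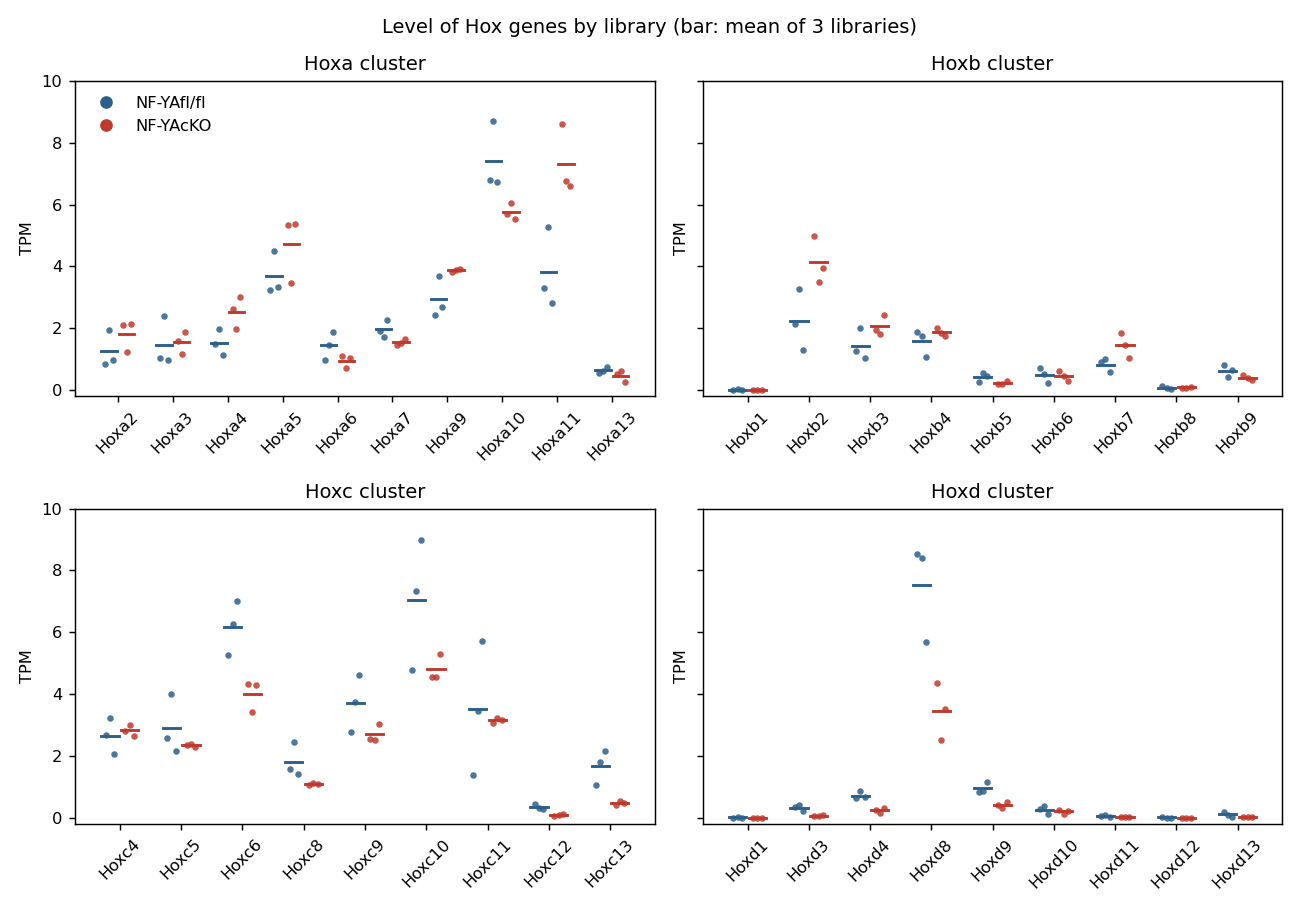
TPM of the Hox genes in each library, by cluster and paralog number (points: libraries; bars: means of 3; blue NF-YAfl/fl, red NF-YAcKO). Hoxa10, Hoxa11, Hoxc6, Hoxc10 and Hoxd8 reach the highest levels, and the red points of Hoxd8 all lie below the blue ones.

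To compare the genotypes, the 17348 genes that exceeded 10 counts in 2 or more libraries were tested with edgeR's quasi-likelihood test and Benjamini-Hochberg adjustment (FDR). A call needed an FDR under 0.01 together with a change of more than 1 in log2 fold, up or down. Of the 38 Hox genes 31 were tested and 7 were not (Hoxb1, Hoxb8, Hoxc12, Hoxd1, Hoxd11, Hoxd12 and Hoxd13). Just inside the limit stood Hoxd10, with 12, 8 and 15 counts in NF-YAcKO and 11, 18 and 6 in NF-YAfl/fl. Just outside stood Hoxb8, with 5, 6 and 9 counts against 7, 4 and 2, and Hoxc12, with 1, 2 and 3 counts against 7, 5 and 6.

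Of the 31 tested Hox genes, 5 were called (16.1%), where 12.3% of all tested genes were. Hoxa11 was called higher in NF-YAcKO, 1 of 31 against 4.65% of all genes, and Hoxc6, Hoxd3, Hoxd4 and Hoxd8 were called lower, 4 of 31 or 12.9% against 7.67%. Without Hoxd3, which passed the count limit through NF-YAfl/fl alone, 3 of 30 (10%) were called lower, against 6.34% of all genes that passed 10 counts in a library of each genotype. In CPM, both genotypes were free of overlap for 6 genes that were above in NF-YAcKO (19.4%, against 29.1% of all genes) and 7 that were below (22.6%, against 26.2%). The share called was thus near that of all genes, and the shares without overlap were below it. Over the 31 genes the log2 fold change had a median of -0.28, against -0.02 for all tested genes. Hoxd3 is counted in that median and among the 7 genes below.

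**Figure D2:**
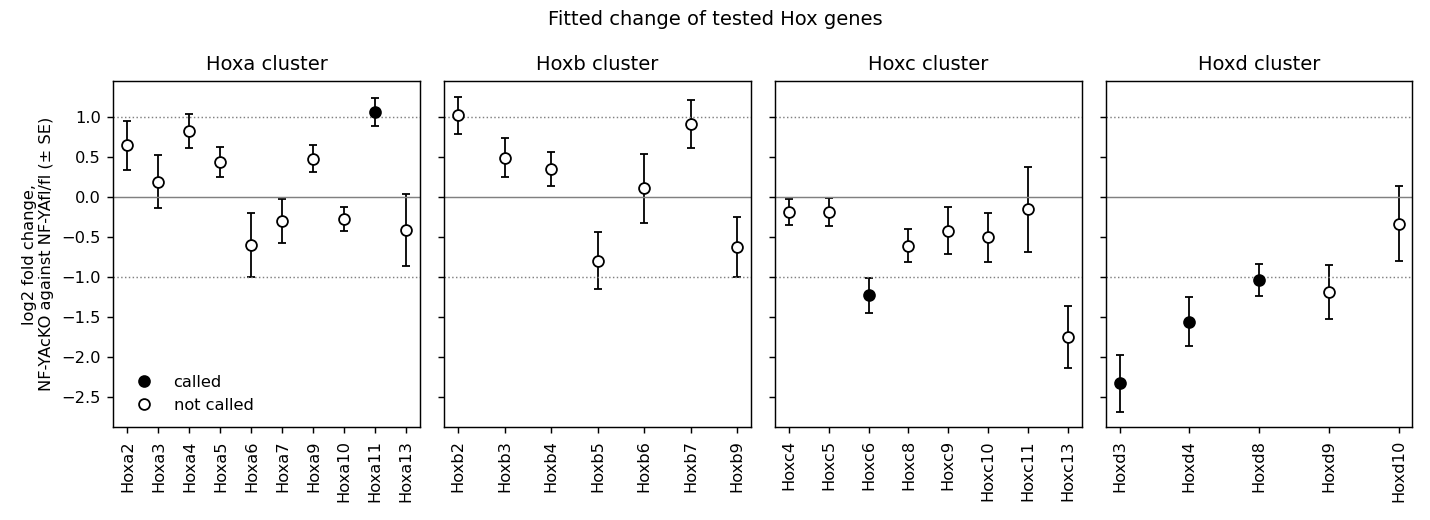
Log2 fold change of NF-YAcKO against NF-YAfl/fl for tested Hox genes, with its standard error (bars), by cluster in the order of paralog numbers; dotted lines mark log2 fold changes of 1 and -1. Filled points are the 5 called genes, and all points of Hoxc and Hoxd lie below 0 in this fit, although 2 Hoxc genes lie above 0 in limma on log2(TPM + 1) or log2(TPM + 0.1). Hoxd3 passed the count limit through NF-YAfl/fl alone.

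The direction of the fitted change differed by cluster. Of the tested genes, 7 of 11 Hoxa genes and 5 of 7 Hoxb genes had a log2 fold change above 0, with medians of 0.43 and 0.35, while 0 of 8 Hoxc genes (2 of 8 in limma on log2(TPM + 1) or log2(TPM + 0.1), 1 of 8 with a replicate block) and 0 of 5 Hoxd genes had, with medians of -0.47 and -1.19. Hoxd3, counted among the 5 Hoxd genes, passed the count limit through NF-YAfl/fl alone, so that this limit favoured a change below 0. Genes of a cluster are neighbours and not replicates, and no test was made of the pattern by cluster. Over 14 alternative settings the number above 0 was 6 to 7 for Hoxa, 4 to 6 for Hoxb, 0 to 2 for Hoxc and 0 for Hoxd. The 14 include an FDR under 0.05, which keeps the same fitted values. The 6 for Hoxb came only from the fit with no filter on low counts, which held 9 Hoxb genes.

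The clusters were also compared by their summed levels. Hoxa genes summed to 34.2, 28.7 and 33.1 TPM in NF-YAcKO and 23.8, 33.7 and 24.3 TPM in NF-YAfl/fl, which overlapped. Hoxb summed to 12.1, 9.68 and 10.2 TPM against 8.12, 9.58 and 5.36 TPM. Hoxc summed to 21.2, 20.8 and 22.4 TPM against 22.5, 32.6 and 34.4 TPM. The genotypes of Hoxb and of Hoxc were parted by a gap far narrower than the spread among the NF-YAfl/fl libraries. Hoxd summed to 5.35, 3.16 and 4.66 TPM against 10.9, 11.1 and 7.85 TPM, a ratio of means of 0.442 with a wider gap. All Hox genes together summed to 68.5 ± 5.47 TPM in NF-YAcKO and 74.7 ± 11.1 TPM in NF-YAfl/fl (SD, n = 3), with overlap. The share of Hoxd in this total was 6.41% in NF-YAcKO and 13.3% in NF-YAfl/fl, and that of Hoxa 46.7% and 36.5%.

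**Figure D3:**
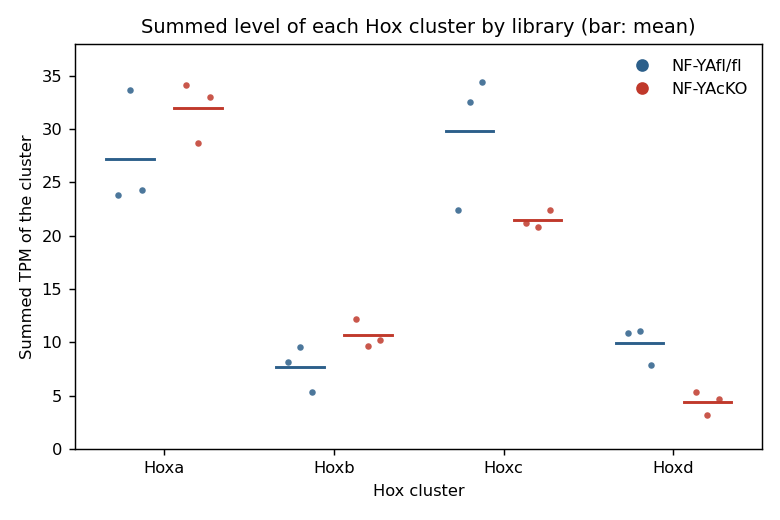
Summed TPM of the Hox genes of each cluster in each library (points), with the mean of 3 libraries (bars), NF-YAfl/fl in blue and NF-YAcKO in red. Hoxd sums lie between 3.16 and 5.35 TPM in NF-YAcKO and between 7.85 and 11.1 TPM in NF-YAfl/fl, and the Hoxa sums overlap.

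In the Hoxa cluster (chromosome 6), Hoxa11 was the called gene. Hoxa11 acts with its paralogs in patterning the middle segment of the limb, and lies from 52242105 to 52245810 on the minus strand. Its level was 8.61, 6.78 and 6.59 TPM in NF-YAcKO and 3.30, 5.29 and 2.83 TPM in NF-YAfl/fl. The genotypes did not overlap, and NF-YAfl/fl replicate 2 came nearest to NF-YAcKO. The normalised counts rose 2.08-fold, from 6.97 ± 1.07 to 14.6 ± 1.69 CPM (SD, n = 3), a log2 fold change of 1.06 with a standard error (SE) of 0.17 and FDR = 0.00389 in edgeR's quasi-likelihood test. The call stood near both limits. It was lost without any single NF-YAcKO library (FDR 0.0148 to 0.0276), without NF-YAfl/fl replicate 1 (FDR = 0.0177) and without NF-YAfl/fl replicate 3, where the log2 fold change was 0.997. Calls over all tested genes fell as well without an NF-YAcKO library, from 806 higher to between 177 and 283. Those called lower fell from 1331 to between 523 and 664.

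The other highly expressed genes of the cluster were not called. Hoxa10, which helps to set the lumbar region and the upper segment of the limb, was at 5.71, 6.04 and 5.53 TPM in NF-YAcKO and 6.81, 8.72 and 6.74 TPM in NF-YAfl/fl. These TPM values did not overlap but the CPM values did, and the log2 fold change was -0.28 (SE 0.15, FDR = 0.187). The fitted values of the neighbours Hoxa10 and Hoxa11 thus had opposite signs, but that of Hoxa10 was not told apart from 0. Hoxa9, a gene of blood stem cells that is also known from aged SCs, was at 3.83, 3.87 and 3.93 TPM against 2.42, 3.70 and 2.70 TPM. Hoxa9 had a log2 fold change of 0.47 (SE 0.17, FDR = 0.0611). Its NF-YAcKO libraries lay close together and just above NF-YAfl/fl replicate 2. Hoxa5, which acts in the neck, shoulder and lung, was at 5.35, 3.46 and 5.38 TPM against 3.23, 4.50 and 3.32 TPM, with overlap (log2 fold change 0.43, SE 0.19, FDR = 0.109).

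Of the genes at the head end of the cluster, Hoxa4, a gene of the neck vertebrae, was at 2.62, 1.96 and 3.01 TPM in NF-YAcKO and 1.48, 1.98 and 1.13 TPM in NF-YAfl/fl. Its CPM values did not overlap, while its TPM values did, and the log2 fold change was 0.82 (SE 0.21, FDR = 0.0213 in edgeR's quasi-likelihood test). Hoxa2 and Hoxa3 had log2 fold changes of 0.64 and 0.19, and Hoxa6, Hoxa7 and Hoxa13 of -0.60, -0.30 and -0.42, with FDR values from 0.135 to 0.679 over these genes. Hoxa3 spans Hoxa4, Hoxa5 and Hoxa6 in RefSeq, and reads of any exons they share would have been split by estimate.

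In the Hoxb cluster (chromosome 11, 96271330 to 96368254, 96.9 kb) edgeR's quasi-likelihood test called no gene, and 2 of 7 (28.6%) had an unadjusted p under 0.05, where 48.7% of all tested genes had. Hoxb2, a gene of the hindbrain and facial nerve, was the most expressed, at 4.99, 3.50 and 3.94 TPM in NF-YAcKO and 2.14, 3.26 and 1.31 TPM in NF-YAfl/fl. The genotypes did not overlap, but the log2 fold change of 1.02 (SE 0.23) had an FDR of 0.0135, short of the limit. Hoxb7, a trunk gene, was at 1.85, 1.44 and 1.03 TPM against 0.90, 1.0 and 0.57 TPM, again without overlap (log2 fold change 0.91, SE 0.30, FDR = 0.0485). The lowest NF-YAcKO library of Hoxb7 stood only just above the highest NF-YAfl/fl library. Hoxb3 and Hoxb4, whose annotations overlap, had log2 fold changes of 0.49 and 0.35, and Hoxb6 of 0.11. Hoxb5 and Hoxb9 pointed the other way, with -0.80 and -0.63, and none of these had an FDR under 0.123.

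In the Hoxc cluster (chromosome 15, 102921131 to 103036856, 115.7 kb), Hoxc6 was called lower. Hoxc6 acts at the level of the forelimb and thorax, and lies from 102998226 to 103011882 on the plus strand. It was at 4.33, 3.42 and 4.28 TPM in NF-YAcKO and 5.25, 6.28 and 7.00 TPM in NF-YAfl/fl. The genotypes did not overlap on either scale. Normalised counts were 9.56 ± 0.448 CPM in NF-YAcKO and 22.5 ± 6.55 CPM in NF-YAfl/fl (SD, n = 3), with a log2 fold change of -1.23 (SE 0.22, FDR = 0.00553 in edgeR's quasi-likelihood test). The call was lost without any single NF-YAcKO library (FDR 0.022 to 0.0286) and without NF-YAfl/fl replicate 2 (FDR = 0.0127).

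The change of Hoxc6 lay mostly in 1 transcript model of 10326 bases, far longer than the other models of the gene, whose lengths are 1592 to 2041 bases. This model took 142, 185 and 208.5 of the counts in NF-YAcKO (47.6% to 48.9% of Hoxc6) and 274, 588 and 621 in NF-YAfl/fl (64.9% to 79.2%). The other models together had 156, 194 and 218.5 counts against 148, 155 and 240 counts. When the long model was left out, an alternative added after seeing the data, the log2 fold change of Hoxc6 was -0.31 (SE 0.24, FDR = 0.326) and the gene was not called. The call of Hoxc6 thus rested on this model. In TPM, the model of 2041 bases was also below without overlap, at 0.43, 0.56 and 0.59 TPM in NF-YAcKO and 1.10, 1.54 and 0.75 TPM in NF-YAfl/fl. The models of 1592 and 1626 bases overlapped.

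At the tail end of the Hoxc cluster, Hoxc13, a gene of hair follicles and nails, was at 0.40, 0.55 and 0.47 TPM in NF-YAcKO and 1.04, 1.79 and 2.15 TPM in NF-YAfl/fl. The genotypes were clearly apart, but the log2 fold change of -1.75 (SE 0.39) had FDR = 0.0127 in edgeR's quasi-likelihood test and was not called, although DESeq2 called it (FDR = 0.000204). Hoxc12, its neighbour, was too low to be tested, at 0.05, 0.07 and 0.11 TPM against 0.45, 0.30 and 0.28 TPM. Hoxc8, which acts in the thorax and brachial motor neurons, was at 1.07, 1.11 and 1.09 TPM against 1.56, 2.46 and 1.42 TPM, without overlap (log2 fold change -0.61, SE 0.20, FDR = 0.0505).

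The other highly expressed genes of the cluster varied more among the NF-YAfl/fl libraries than between the genotypes. Hoxc10, a gene of lumbar motor neurons and the hindlimb, was at 4.55, 4.56 and 5.30 TPM in NF-YAcKO and 4.78, 7.32 and 8.98 TPM in NF-YAfl/fl (log2 fold change -0.51, SE 0.31, FDR = 0.227). Hoxc9, a gene of the thorax, was at 2.55, 2.50 and 3.04 TPM against 2.76, 3.75 and 4.63 TPM (log2 fold change -0.42, SE 0.30, FDR = 0.296). Hoxc11, which acts in the hindlimb, was at 3.07, 3.23 and 3.17 TPM against 1.39, 3.45 and 5.71 TPM, a wide spread around a like mean (log2 fold change -0.16, SE 0.53, FDR = 0.838). Each of these was lowest in NF-YAfl/fl replicate 1 and highest in NF-YAfl/fl replicate 3 among the control libraries, and without replicate 3 the log2 fold change of Hoxc11 turned to 0.65. NF-YAfl/fl replicate 3 also stood apart from replicates 1 and 2 in some markers of cell types. It had Myod1 at 632 TPM against 240 and 240 TPM, and Pdgfra at 3.13 TPM against 22.9 and 31.1 TPM. Whether this bears on the Hoxc values was not tested. Hoxc4 and Hoxc5 each had a log2 fold change of -0.19.

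In the Hoxd cluster (chromosome 2, 74668225 to 74765142, 96.9 kb), 3 of 5 tested genes were called lower, among them Hoxd3, which was tested only because it was high in NF-YAfl/fl (7.67% of all tested genes were called lower). Hoxd8, a trunk gene and the cluster's main transcript, lies from 74704615 to 74707933 on the plus strand. It was at 4.37, 2.51 and 3.51 TPM in NF-YAcKO and 8.54, 8.39 and 5.68 TPM in NF-YAfl/fl. Its genotypes were clearly apart. Counts were 2.06-fold lower in NF-YAcKO (log2 fold change -1.04, SE 0.20, FDR = 0.0079 in edgeR's quasi-likelihood test). The call was lost without any library other than NF-YAfl/fl replicate 3 (FDR 0.0125 to 0.0331, log2 fold change -1.21 to -0.92).

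Hoxd4, which acts in the hindbrain and neck, lies from 74721978 to 74729160 within the span of Hoxd3. It was at 0.23, 0.15 and 0.31 TPM in NF-YAcKO and 0.64, 0.85 and 0.65 TPM in NF-YAfl/fl, without overlap. The normalised counts were 2.95-fold lower in NF-YAcKO, with a log2 fold change of -1.56 (SE 0.31, FDR = 0.00792 in edgeR's quasi-likelihood test). The call was lost whichever library was left out, with FDR values from 0.0102 to 0.0356 and log2 fold changes from -1.87 to -1.40. Hoxd3, a gene of the upper neck (74711993 to 74748271), was lower still, at 0.04, 0.06 and 0.07 TPM against 0.33, 0.42 and 0.21 TPM. It had 3, 7 and 7 counts in NF-YAcKO and 21, 28 and 18 in NF-YAfl/fl, and so passed the count limit only through NF-YAfl/fl. Its log2 fold change of -2.33 (SE 0.35, FDR = 0.00315) was lost as a call without any single NF-YAcKO library (FDR 0.0163 to 0.0183) and without NF-YAfl/fl replicate 1 (FDR = 0.0132). The RefSeq spans of Hoxd3 and Hoxd4 overlap. Whether the genes share exons was not examined, so their counts may not be independent.

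The other genes of the cluster were not called. Hoxd9, which acts in the lumbar region and upper limb, was at 0.41, 0.31 and 0.49 TPM in NF-YAcKO and 0.84, 0.86 and 1.14 TPM in NF-YAfl/fl. Its genotypes did not overlap, and the log2 fold change was -1.19 (SE 0.33, FDR = 0.0286 in edgeR's quasi-likelihood test). Hoxd10, a gene of the lumbar cord and hindlimb, was at 0.26, 0.11 and 0.22 TPM against 0.28, 0.37 and 0.11 TPM, with overlap (log2 fold change -0.34, SE 0.47, FDR = 0.598). Towards the tail end of this cluster, Hoxd11 and Hoxd13 were nearly silent, at most 0.08 TPM and at most 0.18 TPM in any library.

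Read across the clusters by paralog number, the groups differed in direction. Group 2 (Hoxa2 and Hoxb2) summed to 5.96 ± 1.18 TPM in NF-YAcKO and 3.49 ± 1.53 TPM in NF-YAfl/fl (SD, n = 3), with overlap. Group 8, which is mostly Hoxd8, summed to 4.64 ± 0.917 against 9.43 ± 2.02 TPM, and group 13, which is Hoxa13 and Hoxc13 with little Hoxd13, to 0.95 ± 0.211 against 2.40 ± 0.576 TPM, both without overlap. Group 6, mostly Hoxc6, summed to 5.40 ± 0.755 against 8.11 ± 1.09 TPM, also without overlap. Group 11 summed to 10.5 ± 1.04 against 7.37 ± 2.29 TPM, above in every NF-YAcKO library, and group 10 to 10.8 ± 0.269 against 14.7 ± 2.47 TPM, below in every one. Groups 3, 4, 5, 7 and 9 had ratios of means between 0.896 and 1.15. Of the tested genes, 5 of 6 in groups 1 to 3 had a log2 fold change above 0, 5 of 14 in groups 4 to 8 and 2 of 11 in groups 9 to 13. Hoxd3, counted in groups 1 to 3, passed the count limit through NF-YAfl/fl alone. Groups and clusters share genes, so that these sums restate the values above on another axis.

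Several Hox genes have more than 1 transcript model, 14 of the 38, with 50 models. RSEM divides reads between models that share exons, so that levels of models are estimates. Of 25 models with a mean of at least 0.3 TPM in a genotype, 3 lay above (12%) and 5 below (20%) in NF-YAcKO without overlap, near the 12.6% and 19.4% of all such models of genes with more than 1 model. The share of the gene was without overlap in 6 of the 25 (24%) and in 23.5% of all, so that the Hox models were not set apart in this. Hoxc4, a gene of the neck and brachial region whose total was not called (2.81, 3.01 and 2.64 TPM against 2.66, 3.23 and 2.07 TPM), differed in its models. Its shortest model, of 1983 bases, made up 77.9% ± 3.68 of the gene's TPM in NF-YAcKO and 30.9% ± 15.4 in NF-YAfl/fl (SD, n = 3), and a model of 3358 bases made up 0.527% ± 0.912 and 25.3% ± 13.6. Both differences gave p = 0.1 in a two-sided exact permutation test, the smallest p that 3 against 3 libraries allow.

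Hoxa9 showed a like split between its models. The model of 3056 bases was at 2.66, 2.60 and 2.31 TPM in NF-YAcKO and 1.0, 2.12 and 0.70 TPM in NF-YAfl/fl, and its share of the gene was 65.1% ± 5.61 against 41.6% ± 15.6 (SD, n = 3; exact permutation test, p = 0.1). The model of 3229 bases was at 1.17, 1.27 and 1.62 TPM against 1.41, 1.59 and 2.0 TPM, with overlap. In Hoxc6, the model of 10326 bases made up 12.2% ± 0.425 of the gene's TPM in NF-YAcKO and 29.0% ± 7.82 in NF-YAfl/fl (exact permutation test, p = 0.1). With this number of libraries none of these tests can reach 0.05.

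**Figure D4:**
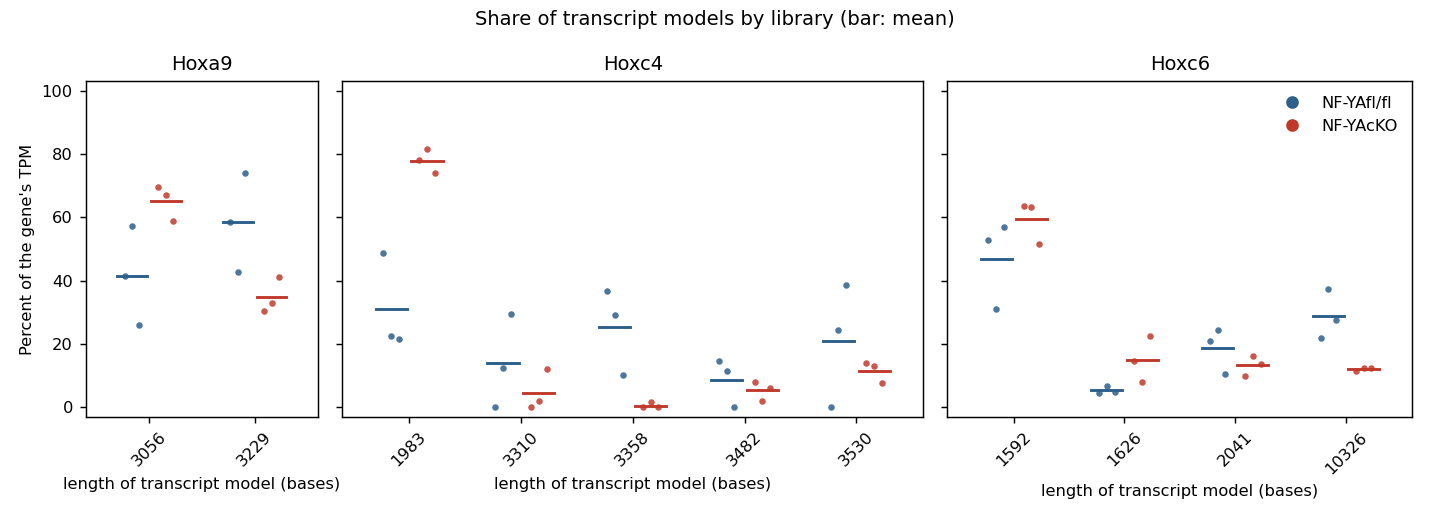
Percent of the gene's TPM given to each transcript model of Hoxa9, Hoxc4 and Hoxc6 in each library (points; bars are means of 3), with models named by their length in bases; NF-YAfl/fl in blue, NF-YAcKO in red. The 1983-base model of Hoxc4 is above in all NF-YAcKO libraries, and the 10326-base model of Hoxc6 below in all of them.

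The partners of Hox proteins were looked at next. Of the list of TALE cofactors, which holds Pbx, Meis and Pknox genes and Pbxip1, 9 of 10 were tested and 1 was called, lower in NF-YAcKO. Of all tested genes, 7.67% were called lower. The called gene, Pbxip1, encodes a protein that binds Pbx proteins and hinders their binding to DNA with Hox proteins. It was at 19.1, 17.4 and 18.4 TPM in NF-YAcKO and 68.0, 57.7 and 65.1 TPM in NF-YAfl/fl. The genotypes were far apart, with a log2 fold change of -1.75 (SE 0.18, FDR = 0.000958 in edgeR's quasi-likelihood test), and the call was kept in all 14 alternatives.

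None of the partners named here was called, though DESeq2 called Pknox2 lower. Pknox2 was at 7.04, 6.58 and 8.39 TPM in NF-YAcKO and 10.3, 15.4 and 19.6 TPM in NF-YAfl/fl (log2 fold change -1.01, SE 0.30, FDR = 0.035 in edgeR's quasi-likelihood test), and Meis2 at 8.04, 6.49 and 7.92 TPM against 12.6, 10.6 and 13.5 TPM (-0.70, SE 0.22, FDR = 0.0451). Both were below in NF-YAcKO without overlap. Pknox1, at 12.5, 11.2 and 13.2 TPM against 8.32, 11.1 and 9.84 TPM, was above without overlap (0.42, SE 0.14, FDR = 0.0595). Meis1 was at 11.3, 6.83 and 8.79 TPM against 6.53, 10.3 and 2.35 TPM, with overlap. The rest of these genes had smaller fitted changes. Pbx2 was at 10.01, 9.07 and 10.7 TPM against 11.7, 14.1 and 13.2 TPM, without overlap (-0.32, SE 0.15, FDR = 0.125). Pbx3 was at 6.54, 6.27 and 6.72 TPM against 6.2, 7.63 and 3.82 TPM (0.27, SE 0.15, FDR = 0.208). Meis3 was at 7.23, 5.18 and 6.54 TPM against 5.57, 7.15 and 4.47 TPM (0.26, SE 0.14, FDR = 0.191).

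Of 17 noncoding RNAs of the Hox clusters in the tables, 5 were tested and 1 was called higher, where 4.65% of all tested genes were. Hoxa11os, which is transcribed from the strand opposite to Hoxa11 and overlaps its 5′ end (52245243 to 52249769), was at 6.32, 5.88 and 4.73 TPM in NF-YAcKO and 2.06, 2.85 and 2.09 TPM in NF-YAfl/fl. Sense and antisense gene were thus above together, without overlap for either. The log2 fold change of Hoxa11os was 1.37 (SE 0.19, FDR = 0.00255 in edgeR's quasi-likelihood test), and the call was lost without NF-YAcKO replicate 1, NF-YAcKO replicate 2 or NF-YAfl/fl replicate 1 (FDR 0.0128 to 0.0186). The library kit keeps strand, but whether the counting used it is not given in the sources used here, so that reads of Hoxa11 and Hoxa11os may not be fully parted. Hotair, the noncoding RNA of the Hoxc cluster, had a log2 fold change of -0.78 (SE 0.49, FDR = 0.249). The entries of the microRNAs Mir10a, Mir10b, Mir196a-1, Mir196a-2, Mir196b and Mir615 were listed at 0.

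Outside the clusters, 18 flanking protein-coding genes were in the tables, and 12 were tested. Of these, 1 was called, lower in NF-YAcKO (of all tested genes, 7.67% were called lower). That gene was Calcoco1, an autophagy receptor gene next to the Hoxc cluster, at 6.76, 6.39 and 8.14 TPM in NF-YAcKO and 24.5, 21.2 and 43.7 TPM in NF-YAfl/fl (log2 fold change -2.08, SE 0.40, FDR = 0.00727 in edgeR's quasi-likelihood test). It lost its call without any single NF-YAcKO library (FDR 0.0265 to 0.0344) and without NF-YAfl/fl replicate 1 (FDR = 0.0187). The median log2 fold change of the 12 genes was 0.17. The 6 ParaHox genes (Cdx1, Cdx2, Cdx4, Gsx1, Gsx2 and Pdx1), relatives of the Hox genes, were too low to be tested, with a sum of at most 0.03 TPM in any library.

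Factors that mark the position of cells along the limb formed the last list, with 15 of 18 genes tested and 1 called, lower in NF-YAcKO. The share called lower over all tested genes was 7.67%. Tbx15, a T-box gene of limb muscle, was at 3.50, 3.65 and 3.79 TPM in NF-YAcKO and 33.1, 27.3 and 15.4 TPM in NF-YAfl/fl. The log2 fold change was -2.68 (SE 0.23, FDR = 0.000433 in edgeR's quasi-likelihood test), and the call was kept in all 14 alternatives. The hindlimb genes Pitx1 and Tbx4 reached at most 1.23 and 2.72 TPM, and the forelimb gene Tbx5 at most 0.70 TPM, in any library. None of these was called.

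**Figure D5:**
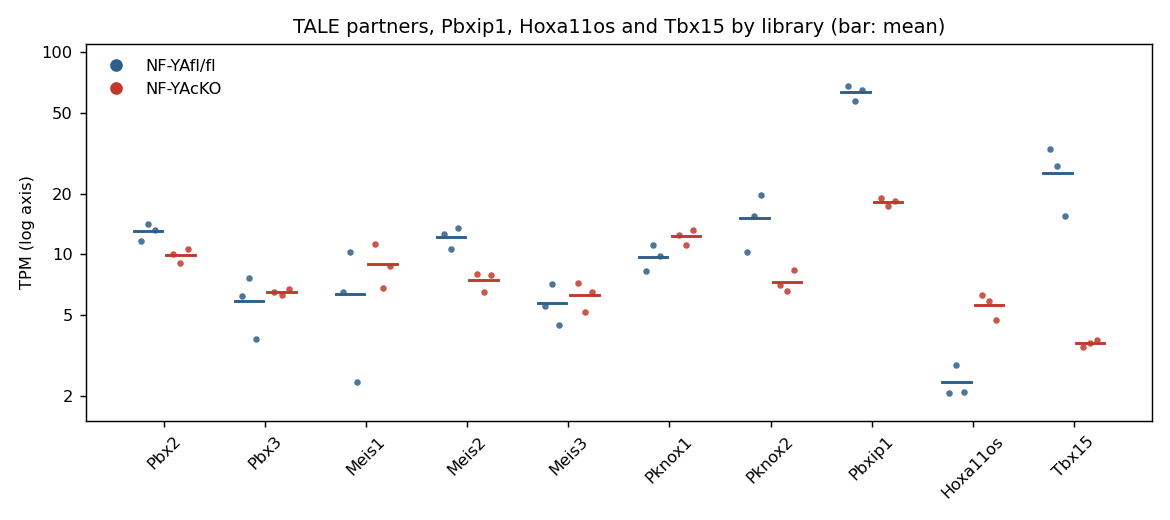
TPM on a log axis of TALE partners, the Pbx-binding protein gene Pbxip1, the antisense gene Hoxa11os and Tbx15 in each library (points; bars are means of 3), NF-YAfl/fl in blue and NF-YAcKO in red. Pbxip1 and Tbx15 are lower and Hoxa11os is higher in NF-YAcKO without overlap, while Meis1 overlaps.

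Markers of other cell types were counted in the same libraries. Over all tested genes, 7.67% were called lower and 4.65% higher. Beside the macrophage, Schwann cell and terminal muscle lists given above, 3 of 10 early myogenic markers were called lower (Myf6, Cdh15 and Des; summed level 661 to 760.2 TPM in NF-YAcKO, 1158 to 1505 TPM in NF-YAfl/fl). Of the pericyte and smooth muscle markers 2 of 7 tested were called lower (Abcc9 and Acta2; 414 to 597 TPM against 1077 to 1361 TPM). Of the fibro-adipogenic and fibroblast markers 1 of 10 was called higher (Lum; 382 to 531 TPM against 198 to 821 TPM), and of the endothelial markers 1 of 7 tested was (Kdr; 6.6 to 8.21 TPM against 2.13 to 5.38 TPM). No marker list was at 0 in either genotype, and Lyz2, the most abundant of the macrophage genes, averaged 197 TPM in NF-YAcKO and 5.60 TPM in NF-YAfl/fl. Their part in the Hox values was not tested.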

How the data were processed

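RNA-seq libraries of SCs from 3 NF-YAcKO and 3 NF-YAfl/fl samples were used, grouped by their titles. The sources used here do not say that each library came from a separate mouse, so p-values measure the spread between these libraries. Reads had been aligned by the authors with Bowtie2 against mm10 transcripts, and RSEM gave the values. Expected counts, as deposited, are raw, and RSEM divides reads shared by overlapping or similar transcripts by estimate. TPM values, as deposited, take account of transcript length and add up to an equal total in all libraries. The deposited isoform tables also give each transcript's percent of its gene's TPM. Deposited FPKM values were not used.

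After rounding of the expected counts, genes that exceeded 10 counts in 2 or more libraries were tested with edgeR 4.0.16 in R 4.3.3 (TMM normalization, quasi-likelihood test, genotype only, Benjamini-Hochberg adjustment) and called at an FDR under 0.01 if the log2 fold change passed 1 in size. The SE is the size of the log2 fold change divided by the square root of F. Overlap between genotypes was judged on TMM-normalized CPM in counts of genes. The fit was tested on simulated data. Transcripts were compared with exact permutation tests. Promoters and positions came from RefSeq tables (GRCm38.p6). Values per library are given for called Hox genes, the 10 with the highest TPM, those without overlap, called genes of the other lists and TALE cofactors with a mean of at least 1 TPM. Hoxc4, Hoxc12, Hoxd10 and single genes of the limb, noncoding RNA and marker lists were named beside these, some after their values were seen. The Hox genes and the other lists were chosen with earlier results of these data known. Library totals of 26936230 to 41118984 put 3 counts at 0.0705 to 0.115 CPM. As alternatives served DESeq2 1.42.0, edgeR with DESeq2 size factors, filterByExpr, no filter, limma 3.58.1 on log2(TPM + 1) and log2(TPM + 0.1), an FDR under 0.05, a replicate block and leaving out each library. Plots were drawn with matplotlib. The results of 2 genes are not reported here, and counts over lists include them.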

Additional observations from a re-analysis of the deposited data

How the results depend on the processing

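Hox calls were few and stood near the limits. Against 1 Hox gene called higher and 4 lower, limma on log2(TPM + 1) called 0 and 0, limma on log2(TPM + 0.1) called 0 and 1, and an FDR under 0.05 called 2 and 6. DESeq2 and the fit with no filter each called 1 higher and 5 lower, with Hoxc13 among the lower (FDR = 0.000204 and 0.00852). Leaving out each library gave 0 to 1 higher and 0 to 3 lower. Over all tested genes, 806 were called higher and 1331 lower. Limma on log2(TPM + 1) called 231 and 704, limma on log2(TPM + 0.1) 361 and 1067, and DESeq2 986 and 1804. An FDR under 0.05 gave 1163 and 2025, no filter 934 and 1419, and the replicate block 625 and 947. Without an NF-YAcKO library 177 to 283 were higher and 523 to 664 lower. Without an NF-YAfl/fl library 298 to 890 were higher and 819 to 1684 lower. The cause of the lost Hox calls was not tested. Same-numbered libraries of the genotypes correlated at 0.224, -0.116 and 0.052 in their deviations from the group means, so that the numbers were not taken as pairs. With the replicate block 0 Hox genes were called higher and 0 lower, Hoxa11os was not called (0 noncoding RNAs higher), and the log2 fold change of Hoxc11 was 0.10. DESeq2 and an FDR under 0.05 each called 2 TALE cofactors and 2 limb position factors lower in place of 1. Both limma fits called 2 limb position factors lower, and limma on log2(TPM + 1) called 0 noncoding RNAs higher. Leaving out a library gave 1 to 3 limb position factors lower, 0 to 1 noncoding RNAs higher and 0 to 1 flanking genes lower. The median log2 fold change of the Hox genes was -0.35 with no filter, -0.18 with limma on log2(TPM + 1) and -0.34 to -0.12 with a library left out. Hoxc11 turned above 0 in limma on log2(TPM + 1) (0.003) and log2(TPM + 0.1) (0.056), and ranged from -0.55 to 0.646 with a library left out. Hoxa11 lost its call in 8 of 14 alternatives, Hoxc6 in 7, Hoxd3 in 6, Hoxd4 in 9 and Hoxd8 in 8. In every count out of 14, the FDR under 0.05 used the same fit with a looser limit. It could therefore lose no call and change no fold change. Hoxc6 without its 10 kb transcript model, added after seeing the data, had a log2 fold change of -0.314. No alternative moved the median of all genes by over 0.1.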
